A study of Mus musculus with 39 samples.

Results

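The genes described here are 6 that mark the fasting response of the liver: Ppara, Creb3l3, Bdh1, Pdk4, Angptl4 and Fgf21. They were taken as every non-control probe on the array whose RefSeq accession belongs to a gene of that list, and all 6 had a probe, among 17016 genes tested. Each had 1 probe except Fgf21, which had a second, and the Ppara probe was printed 10 times on every array. A further 122 genes of the same pathways, of 127 listed, were measured beside them; Pdp2, Apoc2, Irs2, Pck1 and Zbtb16 had no probe that could be used.

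During a fast, fatty acids released from fat reach the liver, enter mitochondria and are oxidized to acetyl-CoA, part of which is turned into the ketone bodies acetoacetate and beta-hydroxybutyrate for use by brain and muscle. PPARα, the receptor encoded by Ppara, senses fatty acids and switches on the genes of this program, and CREB3L3, a membrane-bound factor released by cleavage, acts beside it. FGF21 and ANGPTL4 are secreted products of the program, BDH1 makes beta-hydroxybutyrate, and PDK4 spares glucose by inhibiting the pyruvate dehydrogenase complex.

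Liver RNA came from 39 young male C57BL/6J mice, each mouse a replicate and each hybridized to an array of its own (Cy5, liver) against a pooled mouse reference RNA (Cy3). Aggressor-exposed (AggE) mice spent 6 hrs daily in a mesh cage inside the home cage of a trained SJL male, with brief physical contact at random times, for 5 or 10 days. Ctrl mice followed the same schedule with no aggressor and were deprived of food for the same hours, whereas the labels give AggE mice neither food nor liquid in the sessions. Both were singly housed and met an aggressor across a partition shortly before sampling. Livers were taken 24 hrs after the 5-day regimen (4 Ctrl, 5 AggE), 24 hrs after the 10-day regimen (4 and 5), 1.5 wks after the 5-day regimen (4 and 5) and 4 wks after the 10-day regimen (6 and 6). Groups follow the sentence in each description that gives the days and the rest; the titles of the 1.5 wk AggE livers and of 1 Ctrl liver at that time point name the 10-day regimen instead, and the descriptions of the 5-day AggE livers taken at 24 hrs carry a second, shorter label.

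Signal differed between time points. The share of probes well above background, meaning brighter than the local background by the scanner software's own test, had group medians of 29.8% (Ctrl) and 22.6% (AggE) at 24 hrs post-5-day, 38.5% and 39.2% at 24 hrs post-10-day, 22.5% and 22.4% at 1.5 wks, and 51.7% and 53.4% at 4 wks. At both 24 hr points no slide carried arrays of both groups, so slide and group cannot be told apart there, and the 4 wk arrays were scanned on another day than nearly all others. Of the hepatocyte markers, all 6 with a probe were well above background on every array. Skeletal muscle markers, in contrast, ranged from a mean log2 ratio of -0.36 to 2.49 between arrays. In whole liver, fewer cells of a type and less RNA per cell cannot be told apart.

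Promoter sequences are shown for the factors Ppara and Creb3l3 and for the hormone Fgf21 because these windows held the motifs searched for: AGGTCA (the core bound by PPARα and other nuclear receptors), TGACG (the core of the site bound by CREB family factors), CACGTG (an E-box) and TATAAA. Capitals mark the motifs; TGACG can also be read on the other strand as CGTCA, and every motif was searched on both strands. RefSeq windows of 300 bases (GRCm38.p6, from 250 bases before to 50 after a start site) were at hand for 5 members in 7 entries. Ppara is chr15:85735526-85735825 on the plus strand, Creb3l3 chr10:81092542-81092841 on the minus strand and Fgf21 chr7:45615441-45615740 on the minus strand, each written 5′ to 3′.
Ppara: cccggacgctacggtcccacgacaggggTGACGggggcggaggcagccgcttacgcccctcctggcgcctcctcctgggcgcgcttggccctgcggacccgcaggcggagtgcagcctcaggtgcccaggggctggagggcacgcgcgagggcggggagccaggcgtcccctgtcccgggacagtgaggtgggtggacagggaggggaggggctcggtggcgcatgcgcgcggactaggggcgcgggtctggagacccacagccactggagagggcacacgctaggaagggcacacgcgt
Creb3l3: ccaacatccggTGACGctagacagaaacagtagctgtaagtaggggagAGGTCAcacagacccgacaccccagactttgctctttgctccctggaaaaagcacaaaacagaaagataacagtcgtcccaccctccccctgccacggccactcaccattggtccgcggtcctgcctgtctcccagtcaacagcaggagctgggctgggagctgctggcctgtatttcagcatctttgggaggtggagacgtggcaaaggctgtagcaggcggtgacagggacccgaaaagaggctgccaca
Fgf21: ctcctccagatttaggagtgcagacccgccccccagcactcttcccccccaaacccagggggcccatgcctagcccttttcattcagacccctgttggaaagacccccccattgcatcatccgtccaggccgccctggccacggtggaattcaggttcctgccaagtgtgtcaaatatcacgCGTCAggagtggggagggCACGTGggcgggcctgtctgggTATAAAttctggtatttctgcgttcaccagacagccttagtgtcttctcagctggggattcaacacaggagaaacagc
Ppara held TGACG at position -222 from the start site. Creb3l3 held TGACG at -239 and AGGTCA at -202. The Fgf21 window held TGACG on the other strand at -68, CACGTG at -50 and TATAAA at -28. The other Creb3l3 entry (chr10:81098823-81099122), both Bdh1 entries and the Pdk4 entry held none of the 4 motifs. That Creb3l3 entry lies at the upstream end of the gene as annotated, while the Creb3l3 and Ppara windows shown lie inside their genes. Among all 32851 promoter windows of this length, 20.8% held TGACG, 16.3% AGGTCA, 13.6% TATAAA and 7.15% CACGTG, so each motif is common, and a match describes letters, not a site in use.

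No member passed the test between AggE and Ctrl mice at any time point. In a fit of all 8 group means with limma, none of the 6 reached an adjusted p of 0.05 at 24 hrs post-5-day, where 3.27% of all genes did (1.67% higher and 1.6% lower in AggE), at 24 hrs post-10-day (0.094% of all genes, 0.0882% higher in AggE), at 1.5 wks (0%) or at 4 wks (4.08%, with 1.36% higher and 2.72% lower). At an unadjusted p of 0.05 the count was 1 of 6 at 24 hrs post-5-day against 16.7% of all genes, and 0 of 6 at 24 hrs post-10-day, 1.5 wks and 4 wks against 2.88%, 2.46% and 22.5%. That 1 gene was Fgf21, which was not well above background. AggE and Ctrl arrays overlapped for all 6 members at each time point. Of all genes, 7.46%, 1.89%, 0.799% and 1.83%, in the same order, had arrays that did not overlap, so overlap in all 6 members is near those shares.

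**Figure D1:**
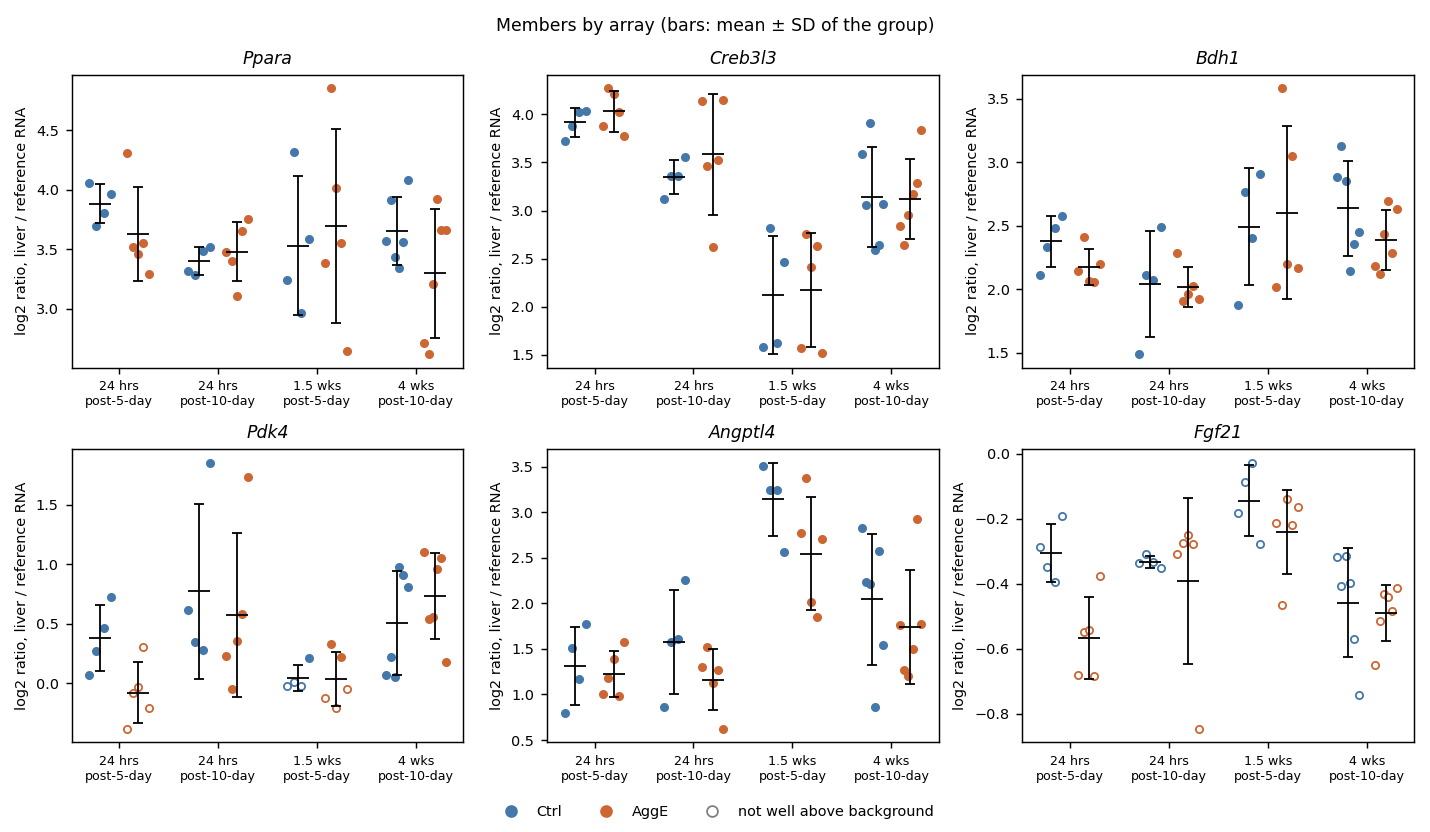
Log2 ratio of liver to reference RNA (y axis) for the 6 members on each of the 39 arrays, by time point (x axis), with Ctrl in blue, AggE in orange, bars for the group mean ± SD and open circles where the probe was not well above background. AggE and Ctrl points overlap in each panel and time point, Creb3l3 lies lowest and Angptl4 highest at 1.5 wks, and every Fgf21 point is open.

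Ppara encodes the receptor that drives hepatic fatty acid oxidation. On the log2 ratio scale, the Ctrl arrays read 4.06, 3.69, 3.80 and 3.97 and the AggE arrays 4.31, 3.52, 3.46, 3.55 and 3.29 at 24 hrs post-5-day. AggE replicate 1 lay above every Ctrl array and the other 4 lay below every Ctrl array. The log2 fold change (AggE minus Ctrl) was -0.26 (95% interval -0.86 to 0.35, limma adjusted p = 0.747), and it was -0.43 without AggE replicate 1, still with no call. Direction here depended on the scaling: the log2 fold change ran from -1.05 with no normalization between arrays to 0.38 with the scanner software's processed signals.

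At the 10-day regimen's 24 hr point Ppara read 3.32, 3.28, 3.49 and 3.52 in Ctrl and 3.48, 3.40, 3.11, 3.65 and 3.75 in AggE livers. These groups lay close together, with a log2 fold change of 0.08 (-0.53 to 0.68), which changed sign in 5 of 16 other settings, to -0.65 with no normalization between arrays. At 1.5 wks the Ctrl arrays read 3.24, 4.32, 2.97 and 3.59 and the AggE arrays 3.38, 4.86, 4.02, 3.56 and 2.65. The spread within each group was far wider than the log2 fold change of 0.16 (-0.44 to 0.77). With slide as a block the value turned to -0.86. That comparison rests on slide 7, which held AggE replicate 5 and Ctrl replicates 1, 2 and 3. At 4 wks Ppara ran from 3.34 to 4.08 (median 3.57) in Ctrl and from 2.62 to 3.92 (median 3.43) in AggE livers, and 3 of the 6 AggE arrays lay below every Ctrl array. The log2 fold change of -0.35 (-0.87 to 0.16, limma adjusted p = 0.461) was within the spread, and turned to 0.14 with Cy5 alone. On the slide that held both groups, the AggE array read 2.71 and the 3 Ctrl arrays 3.34 to 4.08. The 10 Ppara spots within an array had an SD of 0.0997 to 0.634 (median 0.303) on the log2 scale.

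Creb3l3 encodes a liver-enriched factor that is cleaved at the Golgi and then enters the nucleus. Its Ctrl arrays read 3.72, 3.88, 4.03 and 4.03 and its AggE arrays 3.88, 4.28, 4.21, 4.03 and 3.77 at 24 hrs post-5-day. Following the 10-day regimen, 24 hr Ctrl livers read 3.12, 3.35, 3.36 and 3.56 and AggE livers 4.14, 3.47, 2.63, 3.53 and 4.15. AggE arrays thus lay on both sides of the Ctrl arrays after 10 days. The log2 fold changes were 0.12 (-0.49 to 0.73) and 0.23 (-0.37 to 0.84), and without normalization between arrays they turned to -0.65 and -0.44. At 1.5 wks the Ctrl arrays read 1.58, 2.82, 1.62 and 2.46 and the AggE arrays 1.57, 2.75, 2.41, 2.64 and 1.51, a log2 fold change of 0.06 (-0.55 to 0.67). At 4 wks Ctrl livers spanned 2.59 to 3.91, with a median of 3.07, and AggE livers 2.64 to 3.84, with a median of 3.06, and the groups had a log2 fold change of -0.02 (-0.55 to 0.50).

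Bdh1 encodes the mitochondrial enzyme that interconverts acetoacetate and beta-hydroxybutyrate. At 24 hrs post-5-day it read 2.11, 2.33, 2.48 and 2.58 in Ctrl and 2.14, 2.41, 2.07, 2.06 and 2.20 in AggE livers, so that 2 of 5 AggE arrays lay below every Ctrl array. The log2 fold change was -0.20 (-0.69 to 0.29). Livers taken 24 hrs after the 10-day regimen read 1.49, 2.11, 2.08 and 2.49 (Ctrl) and 2.29, 1.90, 1.96, 2.03 and 1.93 (AggE), with all AggE values inside the Ctrl range and a log2 fold change of -0.02 (-0.51 to 0.47). At 1.5 wks the Ctrl values were 1.88, 2.77, 2.41 and 2.91 and the AggE values 2.02, 3.58, 2.20, 3.05 and 2.17, a log2 fold change of 0.11 (-0.37 to 0.60). At 4 wks Bdh1 ran from 2.15 to 3.12 (median 2.65) in Ctrl and from 2.12 to 2.69 (median 2.36) in AggE livers, with a log2 fold change of -0.25 (-0.67 to 0.17). The 4 wk Ctrl arrays separated by slide: 3 on slide 8 read 2.85 to 3.12 and 3 on slide 9 read 2.15 to 2.45, while the AggE array on slide 9 read 2.18.

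Pdk4 encodes pyruvate dehydrogenase kinase 4, and its probe was dim, with a raw Cy5 brightness of 17 to 138 over a background of 15 to 19.5. It was well above background on 28 of 39 arrays. At 24 hrs post-5-day the Ctrl arrays read 0.07, 0.28, 0.46 and 0.72, all well above background, and the AggE arrays -0.38, -0.08, -0.03, 0.31 and -0.21, none of them well above it. AggE arrays were below every Ctrl array in 4 of 5 mice. Because the AggE group had no array above background, its level is only a limit, and no fold is given for this time point. In the Cy5 channel alone the Ctrl mean was 7.47 and the AggE mean 6.91 on the log2 scale, the latter at the dimmest signals that counted as above background. The limma fit gave an unadjusted p of 0.109 and an adjusted p of 0.426, which is no call. The fitted difference varied several-fold between scalings and was called under none of them (lowest adjusted p = 0.126 in limma, with the processed signals). AggE arrays at this time point also had the lower share of probes above background, and the part of that difference in the Pdk4 result was not tested.

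After 10 days, Pdk4 read 0.62, 0.34, 0.28 and 1.86 in Ctrl and 0.23, -0.05, 0.35, 0.59 and 1.74 in AggE livers, all 24 hrs after the last session. Each group held 1 high array. The log2 fold change was -0.20 (-0.77 to 0.37), and it turned to 0.16 without Ctrl replicate 4 and to -0.49 without AggE replicate 5. At 1.5 wks the Ctrl arrays read -0.02, 0.02, -0.03 and 0.21 and the AggE arrays -0.12, 0.33, -0.20, 0.22 and -0.05, of which 1 of 4 and 2 of 5 were well above background, so the levels are near the detection limit, for a log2 fold change of -0.01 (-0.58 to 0.56), or -0.93 with the processed signals and no call. At 4 wks Pdk4 ran from 0.06 to 0.98 (median 0.52) in Ctrl and from 0.18 to 1.10 (median 0.76) in AggE livers. The log2 fold change was 0.23 (-0.26 to 0.72). Ctrl arrays again parted by slide, at 0.06 to 0.22 on slide 8 and 0.81 to 0.98 on slide 9, beside an AggE array at 1.10 on slide 9.

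Muscle expresses Pdk4 strongly, so its levels were set beside 7 skeletal muscle markers. The Ctrl array at 1.86 had a mean muscle marker log2 ratio of 2.12 and the AggE array at 1.74 had one of 1.89. AggE replicate 3 of the same time point had the higher muscle value of 2.19 with Pdk4 at only 0.35. Over the 39 arrays, which share slides, scan days and signal, Pearson's r was 0.40 and Spearman's rho 0.36, and r was 0.40 for deviations from the group means. The part of muscle RNA in the Pdk4 levels was not tested further.

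**Figure D2:**
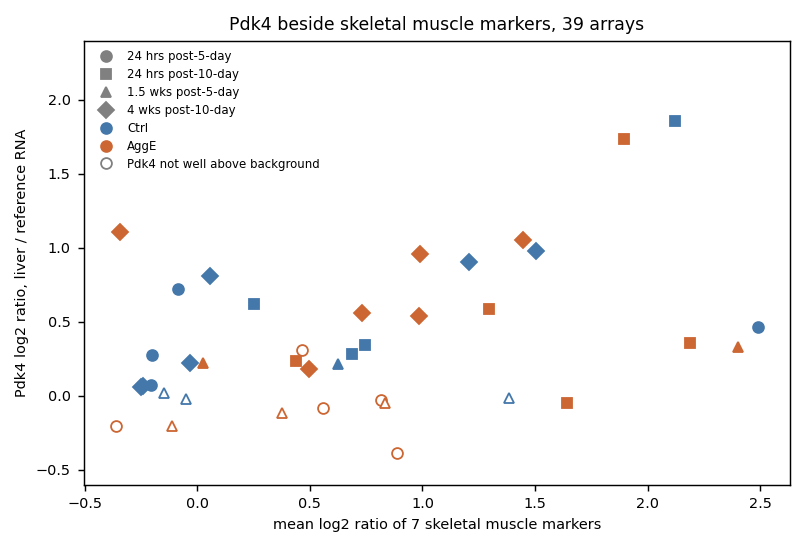
Pdk4 log2 ratio (y axis) against the mean log2 ratio of 7 skeletal muscle markers (x axis) on 39 arrays, with Ctrl in blue, AggE in orange, a shape for each time point and open symbols where Pdk4 was not well above background. The highest pair, at 1.86 and 1.74, lies at muscle values of 2.12 and 1.89, but other arrays with muscle values near 2 have Pdk4 below 0.5.

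Angptl4 encodes a secreted inhibitor of lipoprotein lipase that rises with fasting. Its probe was well above background on all 39 arrays. At 24 hrs post-5-day the Ctrl arrays read 0.79, 1.51, 1.17 and 1.78 and the AggE arrays 1.00, 1.19, 1.39, 0.99 and 1.57, every AggE value inside the Ctrl range, with a log2 fold change of -0.08 (-0.78 to 0.61). After 10 days the 24 hr values were 0.86, 1.57, 1.61 and 2.26 (Ctrl) and 1.30, 1.52, 1.12, 1.26 and 0.62 (AggE), a log2 fold change of -0.41 (-1.11 to 0.29). At 1.5 wks Ctrl livers read 3.51, 3.25, 3.25 and 2.57 and AggE livers 2.78, 3.38, 2.01, 1.85 and 2.71, with 2 of 5 AggE arrays below every Ctrl array. This was the member difference of largest size at that time point, -0.60 on the log2 scale (-1.30 to 0.10), with an unadjusted p of 0.0906 and a limma adjusted p of 1.00. At 4 wks Ctrl ran from 0.86 to 2.82 (median 2.23) and AggE from 1.21 to 2.92 (median 1.63), a log2 fold change of -0.31 (-0.91 to 0.30). The AggE value of 2.92, from replicate 5, stood apart from the other 5 AggE arrays, which read 1.21 to 1.77. The log2 fold change was -0.54 without that array and -0.15 without Ctrl replicate 1, still with no call.

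At 1.5 wks an AggE array scanned on the later day stood apart. AggE replicate 2 had a raw Cy5 brightness of 4530 for Angptl4 against 285 to 403 on the other 4 AggE arrays of that time point, 1105 against 108 to 222 for Ppara, 1292 against 80 to 217 for Bdh1 and 480.5 against 65 to 105.5 for Creb3l3. Without it and Ctrl replicate 4, the other array of that scan day, the Angptl4 log2 fold change was -0.998, and again no member was called.

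Fgf21 encodes the fasting hormone released by the liver. Neither of its probes gave a usable level. The first probe was not well above background on any of the 39 arrays, with a raw Cy5 brightness of 17 to 46 (median 20) against a local background of 13 to 20 (median 17). The second was well above background on 1 array, AggE replicate 2 at 1.5 wks, with 15 to 48 (median 19) against 14 to 22 (median 16). At 24 hrs post-5-day the log2 ratios of the first probe were -0.29, -0.35, -0.40 and -0.19 in Ctrl and -0.68, -0.55, -0.54, -0.68 and -0.38 in AggE livers, with an unadjusted p of 0.00984 and a limma adjusted p of 0.127. At this signal the ratio follows the reference channel and the background at least as much as the liver, so no fold is given. The second probe read -0.26, -0.24, -0.12 and -0.17 against -0.47, -0.14, -0.10, -0.11 and -0.72, with an adjusted p of 0.676 in the same limma fit.

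**Figure D3:**
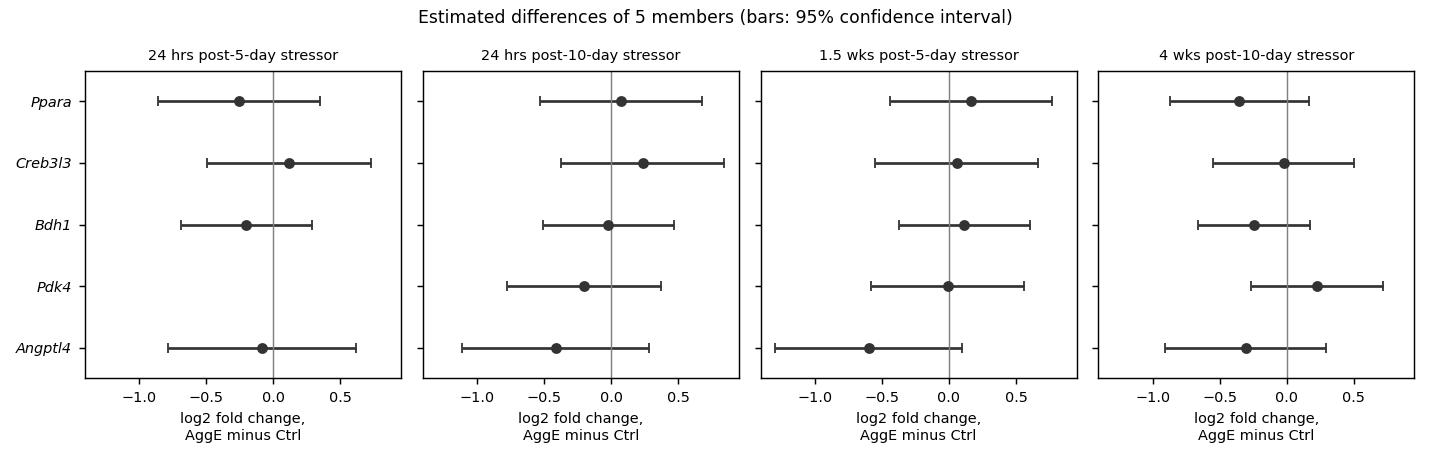
Estimated log2 fold change, AggE minus Ctrl (x axis), for the 5 members other than Fgf21, in a panel for each time point, with bars for the 95% confidence interval of the limma fit and no point for Pdk4 at 24 hrs post-5-day, where AggE livers were not well above background. All intervals shown cross 0, and the estimate farthest from 0 is Angptl4 at 1.5 wks (-0.60).

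Comparisons of the time points gave no member call either. For the mean of both 24 hr contrasts, 0 of 6 members passed the adjusted p against 0.805% of all genes, and 1 of 6 (Fgf21) passed the unadjusted p against 13.3%. For the 5-day contrast minus the 10-day contrast at 24 hrs, the count was 0 of 6 by both rules, against 0.0353% and 6.41%. For 24 hrs minus 1.5 wks post-5-day it was 0 of 6 by both rules, against 0.0999% and 7.63%, and for 24 hrs minus 4 wks post-10-day 0 of 6 against 0.0823% and 9.98%. These intervals are wide: the Ppara effect at 24 hrs minus that at 4 wks was 0.43 (-0.37 to 1.23) on the log2 scale, and that of Pdk4 was -0.43 (-1.18 to 0.32).

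Group means of the members also differed between time points. Creb3l3 was highest at 24 hrs post-5-day, with group means of 4.03 ± 0.21 (SD, n = 5) in AggE and 3.92 ± 0.15 (n = 4) in Ctrl livers, followed by 24 hrs post-10-day (3.58 and 3.35) and 4 wks (3.12 and 3.14), and lowest at 1.5 wks (2.18 ± 0.59, n = 5, and 2.12 ± 0.62, n = 4). Angptl4 ran the other way, from 3.14 ± 0.40 (n = 4) in Ctrl and 2.55 ± 0.62 (n = 5) in AggE livers at 1.5 wks, through 2.05 and 1.74 at 4 wks, to between 1.16 and 1.58 at the 24 hr points. Pdk4 group means were at most 0.78, with the AggE group at 24 hrs post-5-day only a limit, while those of Bdh1 ran from 2.02 to 2.64 and those of Ppara from 3.30 to 3.88. In each of these orders, the arrays of neighbouring groups overlapped. Most slides held 1 time point, and 3 were shared. On slide 6 Creb3l3 read 3.77 in the AggE array at 24 hrs post-5-day and 1.57, 2.41 and 2.64 in the AggE arrays at 1.5 wks, and Angptl4 read 1.57 against 2.78, 2.01 and 1.85. On slide 8 a Ctrl array at 1.5 wks had Creb3l3 at 2.46 and Angptl4 at 2.57, beside 3.06 to 3.91 and 2.22 to 2.82 in Ctrl arrays at 4 wks. On slide 11 an AggE array at 1.5 wks had Creb3l3 at 2.75 and Angptl4 at 3.38, beside 3.84 and 1.77 in an AggE array at 4 wks. That 1.5 wk array was replicate 2, which stood apart in raw brightness. Creb3l3 was thus lower at 1.5 wks on all 3 shared slides, and Angptl4 was higher on slides 6 and 11 and within the 4 wk range on slide 8. The 10-day 24 hr arrays shared no slide with another time point.

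Across arrays the members did not move as a block. After removing group means, Creb3l3 and Bdh1 had an r of 0.66, Ppara and Creb3l3 0.58 and Ppara and Bdh1 0.53, whereas Pdk4 had 0.13 with Ppara and -0.03 with Angptl4. Over the raw 39 arrays the Creb3l3 and Angptl4 values had an r of -0.59, which was 0.13 within groups. Among 10266 genes well above background in a whole group, the pattern most like Creb3l3 was that of Apom (r = 0.90), Ugt3a2 (0.90) and Cyp4f14 (0.89). Ppara was most like Alas2 (0.80), Prodh2 (0.72) and Mgll (0.71), Bdh1 like Crebl2 (0.78), Cfb (0.78) and Tollip (0.77), Angptl4 like Slco3a1 (0.84), Smarcc1 (0.81) and Cd3eap (0.80), and Pdk4 like Glt28d2 (0.83), Ngfr (0.76) and Cd59b (0.76). Fgf21 ratios were nearest to those of Plekho2, Sipa1l2 and Cic (0.82, 0.81 and 0.81), with Fgf21 itself at background. All these correlations are over 39 arrays that share slides, scan days and overall signal, and are descriptions.

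Some listed targets of the factors changed, whereas the factors themselves gave no call. Of the 122 pathway genes, 6 passed the adjusted p at 24 hrs post-5-day (2 higher, 4 lower in AggE), against 3.27% of all genes. At 24 hrs post-10-day 2 passed (both higher), against 0.094%. At 1.5 wks 0 passed, against 0%, and 7 passed an unadjusted p of 0.05, against 2.46%. At 4 wks 5 passed (3 higher, 2 lower), a count near the 4.08% of all genes called there. Median log2 fold changes over the 122 genes were -0.12, -0.08, 0.03 and 0.02, beside 0.0013, -0.00029, -0.0027 and 0.0094 over all genes.

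Known targets of PPARα had estimates below 0 at 24 hrs post-5-day (lower in AggE livers) in all 18 genes measured, of which 4 fell past the test, with a list median of -0.35 that stayed between -0.82 and -0.32 under the other settings tried. Those 4 were the fatty acid hydroxylases Cyp4a14 and Cyp4a10, the acyl-CoA thioesterase Acot1 and the retinol saturase Retsat. Estimates below 0 were not particular to this list. Fed-state lipid synthesis had 11 of 12 genes below 0 (median -0.30, 0 called), and 87 of all 122 pathway genes were below 0. Cyp4a14 read 7.52, 7.34, 6.79 and 7.18 in Ctrl and 5.71, 5.40, 2.48, 2.14 and 4.29 in AggE livers, or -3.20 on the log2 scale (SE 0.77, adjusted p = 0.0177 in limma). Cyp4a10 read 4.28, 3.45, 4.39 and 3.45 against 2.06, 2.30, 1.85, 1.06 and 3.21, or -1.80 on the log2 scale (SE 0.37, adjusted p = 0.00592 in limma). Both were below every Ctrl array in 5 of 5 AggE mice. The AggE arrays with the lowest Cyp4a14, at 2.48 and 2.14, also had the fewest probes well above background, 17.3% and 15.7% against 25.3% to 31.0% on the Ctrl arrays, and the part of this in the result was not tested. Acot1 (-1.16, SE 0.24, limma adjusted p = 0.00708) was below every Ctrl array in 5 of 5 AggE mice, well above background in 2 of them, and Retsat (-0.83, SE 0.22, limma adjusted p = 0.0311) in 3 of 5. All 4 calls were lost with slide as a random block, with only the groups compared in the fit and with no normalization between arrays, although in the last setting Cyp4a14 read -4.60, Cyp4a10 -2.58, Retsat -1.34 and Acot1 -1.02. With the processed signals Cyp4a14 was only -1.15 and Retsat -0.47, neither called, and Cyp4a10 turned to 0.49. With the authors' log ratios Cyp4a14, Cyp4a10 and Retsat also lost their calls. The Cyp4a14 call was also lost without Ctrl replicate 1 or 4, and the Retsat call without Ctrl replicate 1, 2 or 3 or AggE replicate 1, 4 or 5.

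At 24 hrs post-10-day, 14 of the 18 targets were lower and 0 passed the test, with a median of -0.26. There 3 passed an unadjusted p of 0.05, against 2.88% of all genes. In the mean of both 24 hr contrasts the same 4 targets were called lower, Acot1 (-1.05, limma adjusted p = 0.00108) in 33 of 34 alternatives, Cyp4a14 (-2.54, limma adjusted p = 0.0156) in 31, and Cyp4a10 (-1.20) and Retsat (-0.69) in 27 each, and all 4 lost the call with slide as a random block. Cyp4a14 arrays did not overlap there either, at 6.85 to 7.65 in Ctrl and 4.82 to 6.13 in AggE livers. At 1.5 wks 13 of 18 were higher, 0 past the test, with a median of 0.13. By 4 wks 12 were higher, and Cyp4a10 (1.68, SE 0.32, limma adjusted p = 0.00748) and Acot1 (0.86, SE 0.21, limma adjusted p = 0.0244) rose. The list median was only 0.04 there and turned to -0.11 when the comparison was kept within slides. Within slides, the 4 wk comparison rests on 1 AggE array against 3 Ctrl arrays, on slide 9. At an unadjusted p of 0.05 there were 3 targets higher and 2 lower of the 18, against 22.5% of all genes. Cyp4a14 had group means of 4.26 in Ctrl and 3.97 in AggE livers at 4 wks, with 0 of 6 AggE arrays above every Ctrl array. Cyp4a10 ran from 0.25 to 2.02 in Ctrl and from 2.09 to 3.65 in AggE livers at 4 wks, 6 of 6 AggE arrays above every Ctrl array. Cyp4a10 lost this call in 8 of 29 alternatives and Acot1 in 13 of 29, both of them with slide as a random block and when the comparison was kept within slides, and the Cyp4a10 value was 1.01 with the mean over its probes. Acot1 also lost it without AggE replicate 3 or Ctrl replicate 3, 4 or 6. Between regimens and rests, the AggE effect at 24 hrs minus that at 4 wks was -1.81 for Acot1 (limma adjusted p = 0.0191), fitted without the spot of Ctrl replicate 3 at 24 hrs post-10-day, which was marked as an outlier. For 24 hrs minus 1.5 wks it was -5.18 for Cyp4a14 (adjusted p = 0.0493) and -1.57 for Retsat (adjusted p = 0.0309) in the limma fit. These differences between effects were lost with slide as a random block. That of Cyp4a14 was lost in 22 of 35 alternatives and that of Retsat in 14 of 35, many of them leaving out 1 array. Leaving out 1 array moved the Cyp4a14 value between -6.12 (without Ctrl replicate 4 at 1.5 wks) and -4.27 (without Ctrl replicate 3), and the 1.5 wk Ctrl arrays spanned 0.30 to 5.84.

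**Figure D4:**
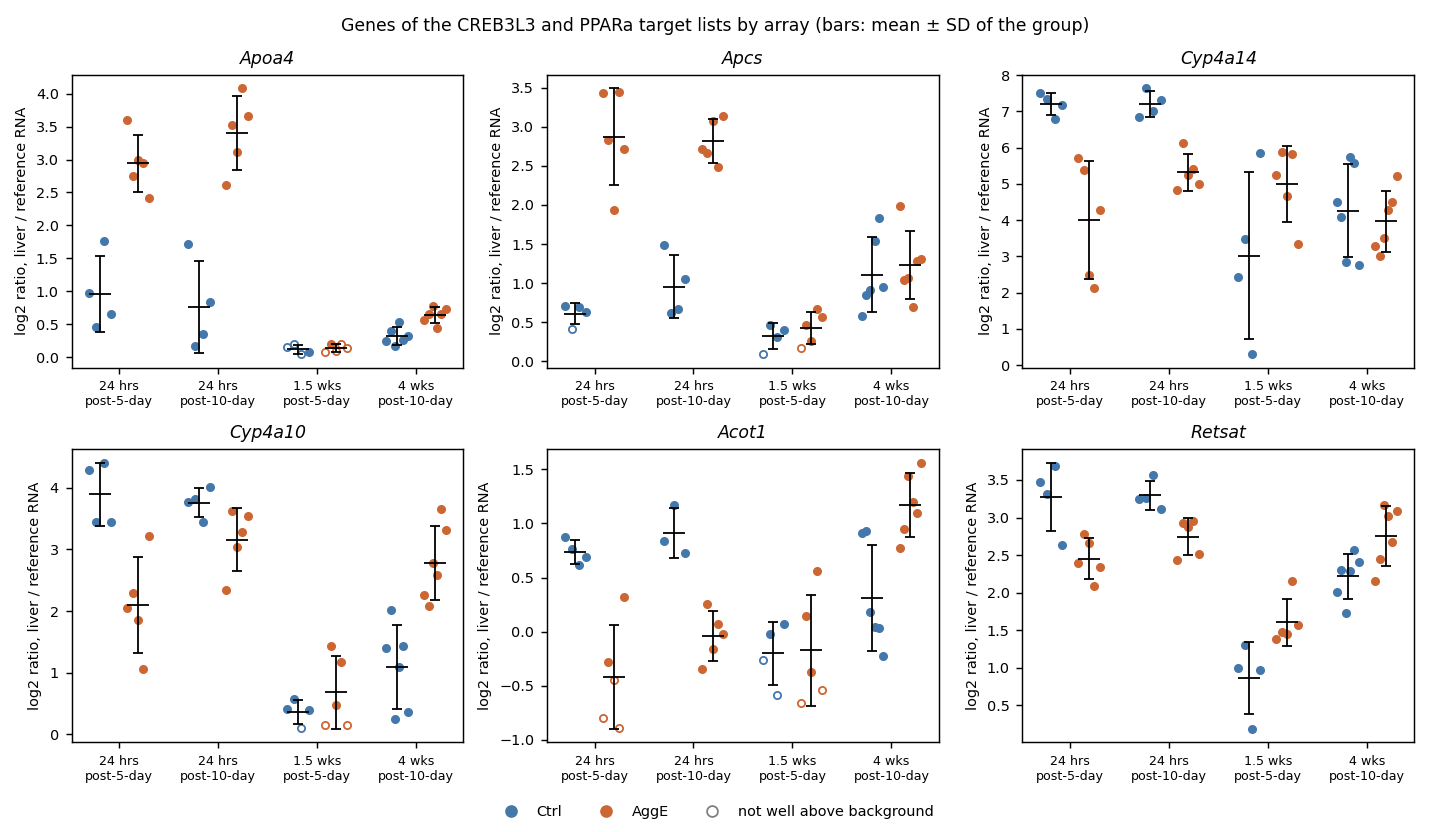
Log2 ratio of liver to reference RNA (y axis) on each array for Apoa4, Apcs, Cyp4a14, Cyp4a10, Acot1 and Retsat, by time point (x axis), with Ctrl in blue, AggE in orange, bars for the group mean ± SD and open circles where the probe was not well above background. Apoa4 and Apcs lie higher in AggE at both 24 hr points, Cyp4a14 and Acot1 lie lower there, and Cyp4a10 lies higher in AggE at 4 wks.

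From the list of CREB3L3 relatives, processing enzymes and targets, 2 of 11 genes rose at both 24 hr points, Apoa4 (an apolipoprotein of lipid export) and Apcs (serum amyloid P, a pentraxin of the acute phase). Apoa4 read 0.98, 0.46, 1.77 and 0.65 in Ctrl and 3.61, 2.76, 2.99, 2.96 and 2.42 in AggE livers at 24 hrs post-5-day, a rise of 1.98 on the log2 scale (SE 0.25, adjusted p = 9.9e-06 in limma). After 10 days it read 1.72, 0.16, 0.34 and 0.84 against 2.61, 3.52, 3.11, 4.09 and 3.66, a log2 fold change of 2.63 (limma adjusted p = 9.1e-08). Apcs rose by 2.27 (limma adjusted p = 1.18e-06) and 1.86 (adjusted p = 6.59e-05). For both genes 5 of 5 AggE arrays lay above every Ctrl array at each 24 hr point, while the medians of the list were -0.14 and -0.09, since 8 of its 11 genes had estimates below 0 at each. With no background correction the first of these medians turned to 0.02. The AggE effect at 24 hrs exceeded that at 1.5 wks by 1.96 (Apoa4) and 2.16 (Apcs) and that at 4 wks by 2.31 and 1.74. The limma adjusted p of these differences were 0.0136, 0.00397, 0.000523 and 0.025. Each was lost with slide as a random block, the processed signals, the authors' log ratios and no normalization between arrays. The 1.5 wk differences were lost in 8 (Apoa4) and 5 (Apcs) of 35 alternatives, and the 4 wk ones in 5 and 13 of 37. Apoa4 was well above background on only 1 array of each group at 1.5 wks. Without normalization between arrays all 4 calls at the single 24 hr points were lost. The Apoa4 call at 24 hrs post-5-day was also lost with slide as a random block and with the authors' log ratios. At 24 hrs post-10-day the Apoa4 call was also lost with only the groups compared in the fit. The Apcs call there was also lost with the authors' log ratios or the processed signals. The calls on the mean of both points, 2.31 for Apoa4 and 2.06 for Apcs, held in all 34 alternatives tried for each.

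Among the 10 other genes of ketone body metabolism, 0 passed the adjusted p at any time point. At an unadjusted p of 0.05 there were 3 lower at 24 hrs post-5-day, against 16.7% of all genes. There were 0 at 24 hrs post-10-day (2.88% of all genes) and 0 at 1.5 wks (2.46%). At 4 wks 3 were higher and 3 lower, against 22.5% of all genes.

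**Figure D5:**
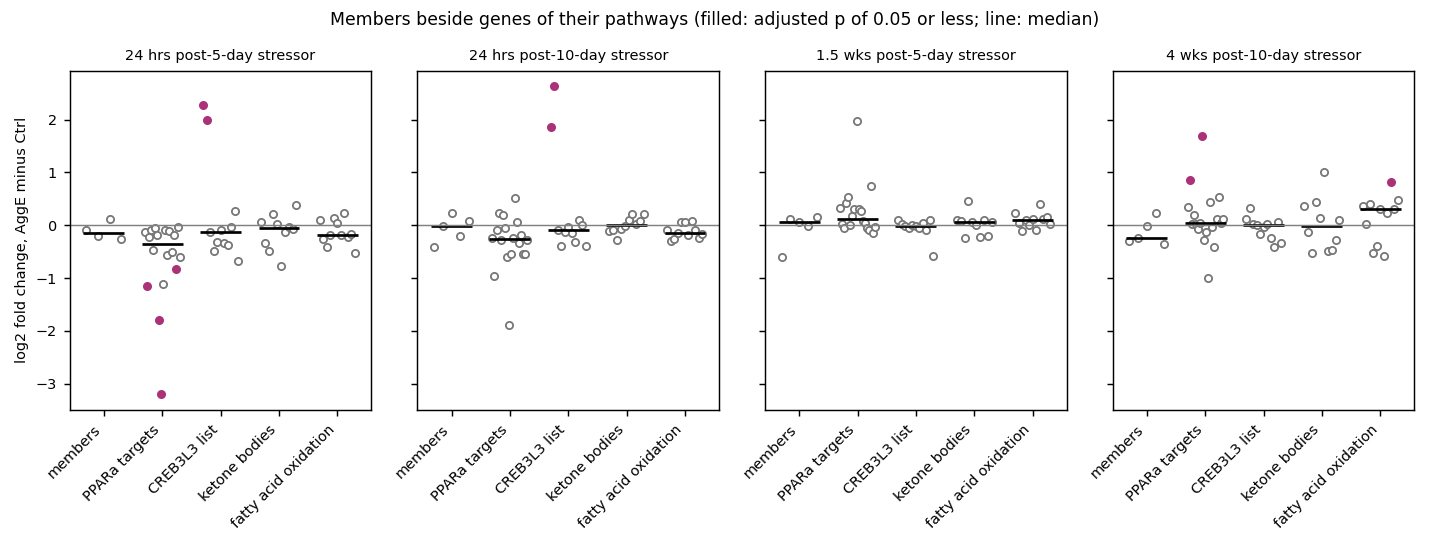
Log2 fold change, AggE minus Ctrl (y axis), for the members and for the genes of 4 pathway lists (x axis) at each time point, with a point for each gene, filled where the limma adjusted p was 0.05 or less, and a line at the list median. Fgf21, and Pdk4 at 24 hrs post-5-day, are not drawn because they were not well above background; no member point is filled, 4 PPARα targets lie filled below 0 and 2 genes of the CREB3L3 list filled above 0 at 24 hrs post-5-day, and 2 targets and Hadha lie filled above 0 at 4 wks.

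Fatty acid entry and mitochondrial oxidation had 11 genes, with 0 called at the first 3 time points and Hadha, a subunit of the trifunctional protein of beta-oxidation, called at 4 wks. Hadha ran from -0.34 to 0.30 in Ctrl and from 0.34 to 1.09 in AggE livers, or 0.82 on the log2 scale (SE 0.11, adjusted p = 0.000295 in limma) with 6 of 6 AggE arrays above every Ctrl array. Hadha lost the call when the comparison was kept within slides, which leaves 1 AggE array against 3 Ctrl arrays. Its AggE effect at 24 hrs post-10-day was lower than that at 4 wks by 0.91 on the log2 scale (-0.91, limma adjusted p = 0.0177), a call lost in 10 of 37 alternatives, among them slide as a random block. Cpt1a, the gate for fatty acid entry, had log2 fold changes of 0.04, 0.06, 0.11 and 0.31 with no call. The list median at 4 wks was 0.31, with 8 of 11 genes higher.

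In the remaining lists few genes passed. Pyruvate dehydrogenase control had Pdha1, the catalytic E1 alpha subunit that PDK4 phosphorylates, lower at 4 wks by 0.41 (-0.41, limma adjusted p = 0.0252), and Pdhx, a structural subunit, lower in the mean of the 24 hr contrasts (-0.32, limma adjusted p = 0.0308), whereas Pdk1 and Pdk2 gave no call. Pdha1 lost its call in 15 of 29 alternatives and was -0.16 when the comparison was kept within slides (1 AggE and 3 Ctrl arrays). Pdhx lost its call in 18 of 34, many of them leaving out 1 array, and both genes lost it with slide as a random block. Of the fasting hormone and gluconeogenesis genes, Creb1 was lower at 4 wks (-0.36, limma adjusted p = 0.0407), and its direction turned to 0.13 when the comparison was kept within slides. Creb1 stayed past the threshold in 9 of 29 alternatives, and missed it with slide as a random block and on leaving out any 1 of 9 of the 12 arrays. PPARα partners, FGF21 receptors, lipoprotein lipase control, glucocorticoid-responsive genes and fed-state lipid synthesis had 0 genes past the adjusted p at each time point. These lists had 13, 6, 9, 7 and 12 genes measured. The unadjusted p passed in 1, 0, 0, 0 and 4 of them at 24 hrs post-5-day, against 16.7% of all genes. It passed in 0 of each at 24 hrs post-10-day (2.88% of all genes) and in 0, 0, 0, 0 and 1 at 1.5 wks (2.46%). At 4 wks it passed in 3, 0, 2, 1 and 1, against 22.5% of all genes. Of the 4 fed-state genes at 24 hrs post-5-day, 1 was higher and 3 lower in AggE. Rxra, the partner with which PPARα binds DNA, had log2 fold changes of 0.19, 0.12, -0.04 and -0.29, and Klb, the co-receptor of FGF21, had 0.28, -0.25, 0.13 and 0.28. Ppargc1a, the coactivator, had 0.08, -0.0031, 0.25 and -0.50 (limma adjusted p = 0.173 at 4 wks), and Lpl, the lipase that ANGPTL4 inhibits, -0.02, 0.16, 0.05 and -0.04.

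Markers of other cell types gave few calls beside these genes. At 24 hrs post-5-day the pancreatic marker Cela2a was called (limma adjusted p = 0.0415) while not well above background on any array of either group, so no fold is given. No marker was called at 24 hrs post-10-day or 1.5 wks. At 4 wks the hepatocyte gene Tdo2 fell by 0.90 on the log2 scale (limma adjusted p = 0.0385), with all 6 hepatocyte markers estimated lower in AggE, and the adipocyte gene Lep rose (0.31, limma adjusted p = 0.0344). Fabp4, an adipocyte marker that PPAR receptors also control, rose in the mean of the 24 hr contrasts (1.10, limma adjusted p = 0.0344). The mean of the muscle markers ran from 0.25 to 2.12 in Ctrl and from 0.44 to 2.19 in AggE arrays for 24 hrs post-10-day, and from -0.25 to 1.51 and -0.34 to 1.45 at 4 wks. All 7 muscle markers were estimated higher in AggE at 24 hrs post-10-day (median log2 fold change 0.37, 0 called), where the group medians of their mean were 0.72 in Ctrl and 1.64 in AggE. The part of these markers in the results above was not tested.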

How the data were processed

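Per the labels and file headers, liver RNA (Cy5) and a pooled mouse reference RNA (Cy3) were hybridized together on 39 Agilent 2-colour arrays without dye swap, and Agilent Feature Extraction 11.5.1.1 gave the values. The authors deposited spot intensity values (mean, median, background and processed signals), and a series table of log10 ratios of Cy5 to Cy3 from the same software, used here as an alternative after conversion to log2.

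From the deposited median intensity values, background was corrected with normexp (offset 50), arrays were loess-normalized within and quantile-normalized between arrays (limma 3.58.1, R 4.3.3), spots marked as outliers (0.295% to 1.46% per array) were dropped and spots of a probe averaged. Probes were matched by RefSeq accession (25903 probes, 1528 without a symbol), and each gene was represented by its probe with the highest mean Cy5 signal. Values are log2 ratios of liver to reference.

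A linear model of 8 group means was fitted with limma over all probes, with Benjamini-Hochberg adjustment, and an adjusted p of 0.05 or less was a call. Other settings changed the background correction, normalization, probe filter, model, slide or scan-day block, threshold and the arrays included. Slide as a fixed block keeps the comparison within slides, and at 1.5 wks and 4 wks it then rests on 1 AggE array each. The scripts were tested on simulated data. The number of arrays limits the precision. Members and lists were chosen with earlier results of these data known. All members are named, 9 pathway genes whatever their values (some are not reported here), in each list and comparison up to 4 genes past the threshold by size of the moderated statistic, and for each member the 3 genes most like it; marker genes named were chosen after their values were seen.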

Additional observations from a re-analysis of the deposited data

Results flagged for a closer look

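Of 48 groups of arrays tested over the members, 4 held an array far from the others, where chance alone gives about 1 in 20. Ppara read 4.31 in AggE replicate 1 at 24 hrs post-5-day, above the other 4 AggE arrays at 3.29 to 3.55. Angptl4 read 2.92 in AggE replicate 5 at 4 wks, above 1.21 to 1.77 in the others. For Fgf21, which was not well above background, AggE replicate 5 at 24 hrs post-10-day read -0.85 and AggE replicate 2 at 1.5 wks -0.46.

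The AggE effect differed between time points for 6 pathway genes by limma's test of the difference. At 24 hrs minus 1.5 wks post-5-day the differences were 2.16 for Apcs, 1.96 for Apoa4, -1.57 for Retsat and -5.18 for Cyp4a14. At 24 hrs minus 4 wks post-10-day they were 2.31 for Apoa4, 1.74 for Apcs, -1.81 for Acot1 and -0.91 for Hadha. All of these calls were lost with slide as a random block. The only slide shared between the time points compared was slide 6, with 1 AggE array at 24 hrs post-5-day and 3 at 1.5 wks. The time points of the 10-day regimen shared no slide and cannot be told apart from it.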

How the results depend on the processing

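No member was called in 245 of 246 other settings for the counts of members called. The exception was 1 member with array weights at 24 hrs post-5-day, Fgf21, which was not well above background. Of 530 other values of the log2 fold changes of the 5 members other than Fgf21, 507 moved by less than the spread between replicates and 23 by more, none was called, and the lowest adjusted p was 0.126. Apart from leaving out single arrays, a setting changed the sign of every such fold change except Bdh1 and Pdk4 at 24 hrs post-5-day, Angptl4 and Pdk4 at 24 hrs post-10-day, Angptl4 at 1.5 wks and Bdh1 at 4 wks. Leaving out each array in turn gave 0 to 0 members called in every comparison.

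The counts of pathway genes called moved more, and the cause was not tested. At 24 hrs post-5-day the 6 calls became 11 with no background correction or an offset of 16, 3 with processed signals, 0 with no normalization between arrays or Aquantile (which leaves the ratios the same), 10 with Cy5 alone, 2 with only the groups compared, 13 with array weights, 1 with slide as a random block, and 4 to 7 leaving out each array. At 24 hrs post-10-day the 2 calls became 1 with processed signals, the authors' log ratios or only the groups compared, and 0 without normalization between arrays or with Aquantile, and stayed at 2 to 2 leaving out each array. At 1.5 wks there were 2 calls at 2-fold and an unadjusted p of 0.05, and 0 to 0 leaving out each array. At 4 wks the 5 calls became 2 with no background correction, slide as a fixed block, only the groups compared or the 2-fold rule, 3 with an offset of 16 or the mean over a gene's probes, 1 with processed signals, Cy5 alone or slide as a random block, 14 with no normalization between arrays, Aquantile or array weights, 12 with only probes well above background, and 11 with scan day as a block. Leaving out each array at 4 wks gave 2 to 16, with 16 without AggE replicate 1, 15 without Ctrl replicate 2, 3 without AggE replicate 2 or Ctrl replicate 6, and 2 without AggE replicate 3 or Ctrl replicates 3 or 4.

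Directions of called genes turned for Cyp4a10 with processed signals (0.49 at 24 hrs post-5-day, 0.28 in the mean of both 24 hr contrasts) and for Creb1 with slide as a fixed block (0.13). Over all 871 other values of the named pathway genes, 646 kept their call, 222 lost it and 3 reversed. With the replicate number as a block, 0 members and 6, 2, 0 and 6 pathway genes were called at the 4 time points in order. Arrays of the same number did not pair, since their deviations had correlations of -0.45 to 0.50. At 1.5 wks, leaving out both arrays of the later scan day was chosen after seeing the data. Arrays of low overall signal limit what could be seen at 24 hrs post-5-day and 1.5 wks.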
